A study of Mus musculus with 35 samples.

Results

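The hypothalamus of 10 fed control mice was described at Zeitgeber time 16, in the dark phase, when mice normally feed. These were all samples titled as control and ad libitum fed, 10 of the 35 samples of the series, and each sample was 1 RNA-seq library. Per the labels, the mice were male, of strain B6/J, of genotype Control (the series' design text speaks of wild type mice), and had free access to food. Zeitgeber time counts hours from lights-on. The tissue was a block cut by coordinates, from 0 to -3 mm anteroposterior, 1.5 mm to each side of the midline and 4 to 7 mm deep, and polyadenylated RNA was read in pairs of 150 bases. The labels give no age and no litter, so the spread given here is the spread between samples. In such bulk tissue, fewer cells of a type and less RNA per cell cannot be told apart.

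The hypothalamus links the brain to hormone release, feeding, sleep, temperature and reproduction. It does so with small groups of neurons that each make 1 or a few neuropeptides, which are cut from longer precursor proteins and act on receptors of the G protein-coupled class. Vasopressin and oxytocin neurons send axons to the posterior pituitary, while neurons of the arcuate nucleus and the lateral hypothalamus make peptides that promote or restrain feeding.

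Depth was 18080903 to 21898438 counts per library, and 6.69% to 7.37% of the counts were mitochondrial. Of 49568 gene names, 31309 had a count in at least 1 mouse and 14560 were at 1 CPM (counts per 1000000 counts) or more in every mouse. CPM values were divided by library sizes scaled with edgeR's TMM factors. Expression was concentrated: 1014 genes held 50 percent of the counts, the 10 highest genes of a library took 7.15% to 7.85%, and the 100 highest took 20.7% to 21.7%. Protein-coding genes of the nuclear genome took 86.3% to 87.5%. Library numbers in the file headers fell into 2 ranges, 121 to 125 for replicates 1 to 5 and 141 to 145 for replicates 6 to 10, and what the ranges stand for is not stated.

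The highest genes by CPM were genes of the mitochondrial genome and their nuclear copies. mt-Co1, which encodes subunit 1 of cytochrome c oxidase, ranked first at 20267 CPM with an SD of 633 over the 10 mice, between 19071 and 21120. mt-Cytb, mt-Nd4, mt-Atp6, mt-Co3, mt-Co2 and mt-Nd1 also stood among the 11 highest. The other names there, Gm10925, Gm28437, Gm28661 and Gm29216, share at least 10% of their 50-base words with other genes, and each alignment of a fragment was counted. Gm28437 (5940 ± 224 CPM) and mt-Co3 (5941 ± 224 CPM) accordingly could not be told apart. Such names are called uncertain below, as are genes with at least 10% of their exon bases inside another gene.

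Length changed the order. Gm23935, a short uncertain name, rose from rank 78 by CPM to rank 1 per kilobase of exon, at 16270 ± 5161 CPM per kilobase. Mbp, which encodes myelin basic protein, ranked 12 by CPM (4105 ± 422 CPM) and 52 per kilobase (488 ± 50.2). Cpe, the carboxypeptidase that trims peptide hormones, ranked 22 by CPM and 28 per kilobase. Among nuclear genes that were not uncertain, a subset chosen after the values were seen, Mbp, Sparcl1 (2413 ± 62.6 CPM) and Cpe (2388 ± 102 CPM) were among the highest by CPM. Per kilobase the 5 highest were Fth1 (1758 ± 116), Ckb (1004 ± 49.1), Cpe (915 ± 39.1), Apoe (897 ± 85.6) and Sparcl1 (822 ± 21.3). Myelin, astrocyte, iron storage and creatine kinase genes thus stood at the top, with a peptide-processing enzyme between them.

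Neuropeptide precursors formed a steep ladder of levels. Of 52 precursor genes, 30 were at 1 CPM or more in every mouse, and 2, Tac4 and Iapp, had 0 counts in all 10. A count of 0 allows up to 3 counts, which is 0.136 to 0.167 CPM per library and covers counting error alone. Summed over the list, a mouse held 1078 to 1340 CPM, and the 5 highest by CPM (Avp, Oxt, Cck, Pmch and Hcrt) made up 50.8% to 56.8% of that sum, with a median of 54.8%. The median over all 52 was 2.62 CPM per kilobase. Over the 30 at 1 CPM or more in every mouse it was 13.6, and over the 14560 genes at that level it was 6.05.

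**Figure D1:**
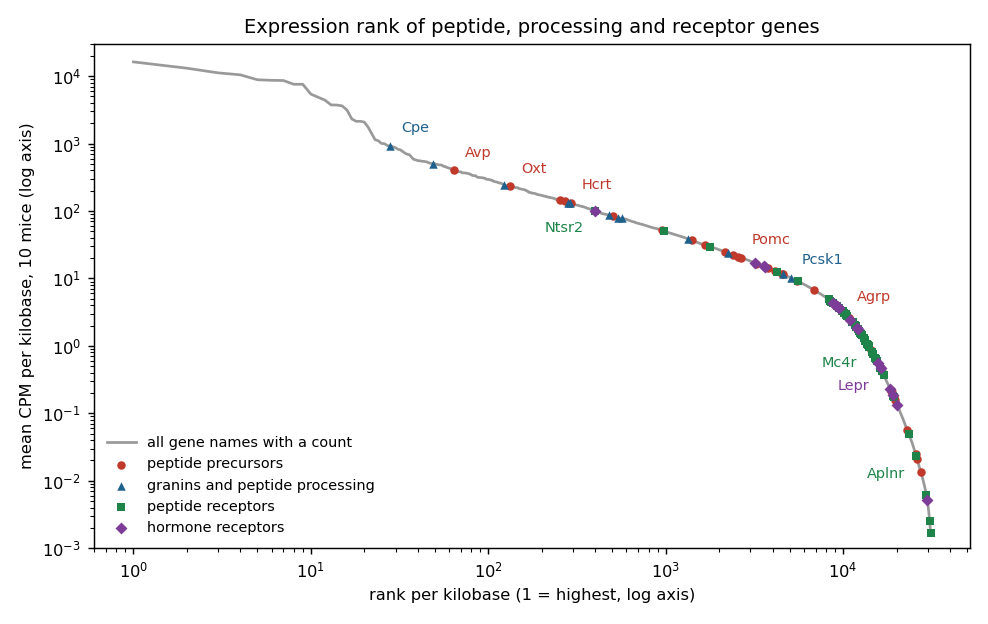
Mean CPM per kilobase over 10 mice (log axis) against rank (log axis) for all gene names with a count (grey line), with 4 gene lists as points. Cpe (rank 28) and Avp (rank 64) lie near the top, while most receptors lie far to the right, around their median of 1.68 CPM per kilobase.

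Avp and Oxt, neighbours on chromosome 2, led the list. Avp, the vasopressin precursor (chr2:130580620-130582554, minus strand, mm10), ranged from 270 to 538 CPM per kilobase, with a median of 413 and a mean of 399 ± 80.3 (SD, n = 10; rank 64). Oxt, the oxytocin precursor (chr2:130576173-130577054, plus strand), ranged from 172 to 281, with a median of 229 and a mean of 231 ± 35.8 (rank 133). Replicate 1 was highest and replicate 2 lowest for both genes. Within a mouse, Avp was 1.45 to 2.15 times Oxt per kilobase, so Avp was higher in 10 of 10 mice although the 2 ranges overlap. The 2 genes share 14.8% (Avp) and 16.0% (Oxt) of their 50-base words with other genes, and their counts are uncertain to that extent.

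A second step held 3 precursors with overlapping ranges. Pmch, the precursor of melanin-concentrating hormone of the lateral hypothalamus, ranged from 128 to 169 CPM per kilobase (median 144). Sst, the somatostatin precursor, ranged from 123 to 161 (median 136). Hcrt, the precursor of the wake-promoting orexins, ranged from 117 to 151 (median 127). Their order is not separated by the spread between mice. In addition, 58.1% of the exon bases of Pmch lie inside another gene, and fragments that overlap 2 genes were not assigned by the counter, so its level is uncertain.

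Below these came Cck (83.6 ± 7.26 CPM per kilobase), Cartpt (51.4 ± 9.64), Trh (36.8 ± 6.24) and Penk (31.3 ± 3.05). Cck encodes cholecystokinin, Cartpt a peptide that restrains feeding, Trh the hormone that drives the thyroid axis, and Penk the enkephalins. Penk is uncertain, with 14.3% of its exon bases inside another gene. Cck did not overlap with Cartpt, at 72.9 to 99.1 against 37.4 to 67.6, whereas Cartpt, Trh (27.3 to 45.8) and Penk (26.0 to 35.6) each overlapped with the next.

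The next step ran from Tac2 to Pdyn. Tac2, the neurokinin B precursor, ranged from 16.4 to 38.6 CPM per kilobase (mean 24.8 ± 6.61). Adcyap1, which encodes the peptide PACAP, was nearly level at 20.8 to 24.0 (22.4 ± 1.05). Gal, the galanin precursor, ranged from 16.2 to 30.3, with replicate 5 apart from the others. Pomc, the precursor of the satiety peptide alpha-MSH, ranged from 16.8 to 23.0 (20.2 ± 2.04). Npy (16.6 ± 1.86), a feeding-promoting peptide, and Pdyn (14.3 ± 1.14), the dynorphin precursor, followed.

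Several well-known hypothalamic precursors were low in this block. Agrp, made with Npy in the hunger neurons of the arcuate nucleus, held 1.71 to 3.74 CPM (median 2.94), or 2.88 ± 0.57 CPM per kilobase, and 11.3% of its exon bases lie inside another gene. Pomc was 5.84 to 11.5 times Agrp per kilobase within a mouse. Crh, the releasing hormone of the stress axis, held 2.44 to 4.98 CPM, and Ghrh, that of the growth hormone axis, held 1.45 to 3.36 CPM. Gnrh1, that of the reproductive axis, held 0.5999 to 1.287 CPM. Gnrh1 and Kiss1 are named here although they fell below 1 CPM. Kiss1 was listed at a mean of 0.04 CPM, but 78.7% of its exon bases lie inside another gene and all of its 50-base words occur elsewhere, so it was not measurable with these counts.

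**Figure D2:**
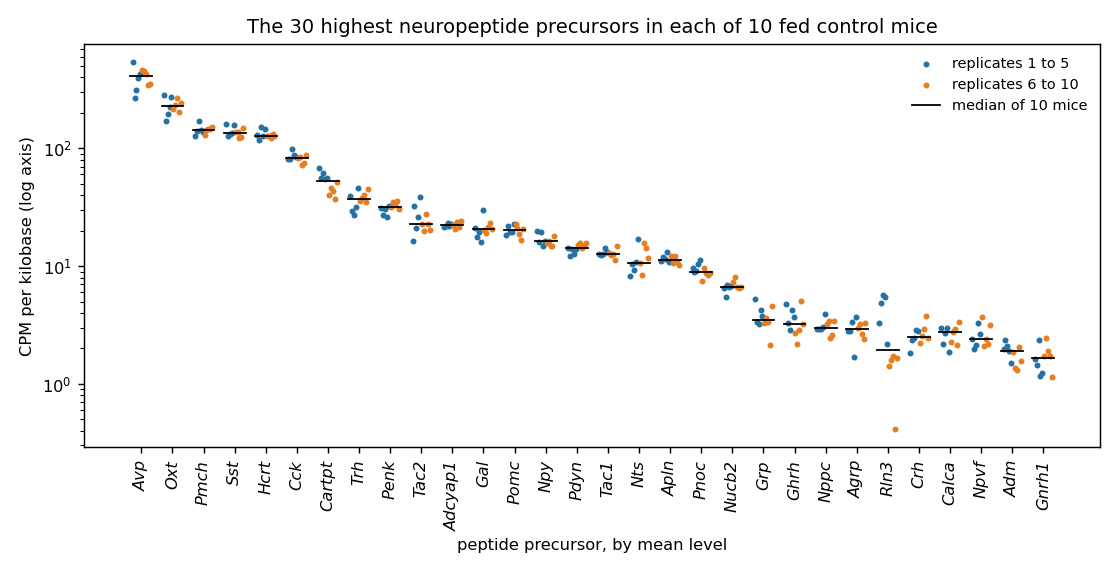
CPM per kilobase (log axis) of the 30 highest neuropeptide precursors in each of the 10 mice, coloured by library number range, with the median as a black line. The levels fall from Avp (median 413) to Gnrh1 (median 1.67), and the points of Tac2, Nts and Rln3 spread more widely than those of Adcyap1.

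The precursors also differed in how they varied. The coefficient of variation (CV) between mice was taken net of counting error, and its median was 9.14% over the 21 precursors at 5 CPM or more, against 5.60% over all 12093 genes at that level. Vip (28.7%, 2.06 to 7.55 CPM), Tac2 (26.2%) and Nts (25.1%, 9.69 to 19.9 CPM) varied most, and Avp stood at 20.1%. Vip encodes a peptide of the suprachiasmatic clock and of cortex, and Nts encodes neurotensin. Nts was highest in replicate 5, where genes of the medial habenula, described below, were also high. The part of habenular tissue in the spread of these precursors was not tested. Adcyap1 (3.30%), Apln (6.60%) and Tac1 (6.79%) varied least. Rln3, the relaxin-3 precursor of the brainstem, was below that level but had a net CV of 64.3%, from 0.26 CPM in replicate 9 to 3.63 CPM in replicate 3.

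The promoters of these genes were searched because many strongly expressed peptide genes carry a TATA box, the sequence just upstream of a start site that places the transcription machinery. In the RefSeq promoter table (GRCm38.p6), the letters TATAAA were sought on the gene's own strand, with the first base 41 to 21 bases before the start. They were found for 9 of 41 precursors with a promoter in the table (21.95%), namely Pmch, Hcrt, Pomc, Ghrh, Vip, Npvf, Rln3, Nppc and Gcg, and for 7 of the 25 that were at 1 CPM or more in every mouse. Over all 27025 symbols in the table the share was 2.45%, and over genes at 5 CPM or more it was 1.25% (114 of 9154). Peptide receptors held it in 2 of 45 (4.44%). The windows below run from 50 bases before the start to 19 after it, and capitals mark TATAAA. They show 3 precursors with the letters, Pmch (chr10:88091022-88091091, plus strand, at -27), Hcrt (chr11:100762912-100762981, minus strand, at -33) and Pomc (chr12:3954895-3954964, plus strand, at -25), and the 2 highest precursors, Avp (chr2:130582569-130582638, minus strand) and Oxt (chr2:130576119-130576188, plus strand), in which these exact letters were not found.
Pmch: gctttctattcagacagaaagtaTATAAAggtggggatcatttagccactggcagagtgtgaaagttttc
Hcrt: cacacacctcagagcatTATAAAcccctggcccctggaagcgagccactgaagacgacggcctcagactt
Pomc: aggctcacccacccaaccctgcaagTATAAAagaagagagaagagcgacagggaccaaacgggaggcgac
Avp: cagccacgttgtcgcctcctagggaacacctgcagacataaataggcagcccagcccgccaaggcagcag
Oxt: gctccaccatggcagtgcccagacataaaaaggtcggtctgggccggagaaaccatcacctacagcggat

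The machinery that stores and cuts peptides was abundant. All 12 granin and processing genes were at 1 CPM or more in every mouse, with a median of 83.2 CPM per kilobase. Cpe ranged from 860 to 976 CPM per kilobase (median 910). Pcsk1n, which encodes the inhibitor proSAAS, followed at 450 to 538, and Scg2, a granin of dense-core vesicles, at 225 to 253. Chga (133 ± 8.63), Scg5 (132 ± 7.99) and Chgb (86.6 ± 3.57) came next. The lowest were Cpd (11.5 ± 0.83) and the convertase Pcsk1 (10.2 ± 0.85). The median net CV of this list was 5.27%, against 9.14% for the precursors.

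Peptide receptors were low, and a few stood far above the rest. Of 59 receptor genes in the tables, 48 were at 1 CPM or more in every mouse, and the median was 1.68 CPM per kilobase. Ntsr2, a neurotensin receptor of astrocytes, ranged from 96.3 to 109 CPM per kilobase (median 101). Adcyap1r1, the PACAP receptor, ranged from 47.3 to 54.8, and Oprl1, the nociceptin receptor, from 27.0 to 33.5. These 3 ranges did not overlap. Npr2 (12.4 ± 0.38), the receptor of C-type natriuretic peptide, Sstr1 (9.05 ± 0.62), a somatostatin receptor, and Npy1r (4.87 ± 0.61), an NPY receptor, completed the 6 highest.

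At the other end, Gnrhr and Avpr1b, receptors of the anterior pituitary, had mean levels of 0.0053 and 0.0103 CPM. Receptors of the leading ligands were named after their values were seen. Oxtr held 4.43 to 7.59 CPM (1.33 ± 0.21 CPM per kilobase), Avpr1a 2.92 to 5.08 CPM, Mchr1 8.30 to 11.01 CPM, and the orexin receptors Hcrtr1 and Hcrtr2 5.58 to 8.74 and 6.81 to 9.13 CPM. Of the receptors of the feeding circuit, also named afterwards, Mc4r held 2.23 to 3.38 CPM, Glp1r 2.09 to 3.57 CPM and Ghsr, the ghrelin receptor, 3.63 to 5.90 CPM. Mc4r and Glp1r overlapped, and Ghsr lay just above both. The most variable receptors at 5 CPM or more were Npr1 (net CV 21.4%, uncertain by overlap), Oprm1 (20.2%) and Prokr2 (19.3%), and the least variable were Cckbr (0%) and Npr2 (0.60%).

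Hormone receptors were led by Thra. This thyroid hormone receptor ranged from 91.5 to 108 CPM per kilobase (median 101), against 3.23 to 4.90 for Thrb, which was named after its values were seen. The adiponectin receptors Adipor2 (16.9 ± 1.38) and Adipor1 (15.2 ± 0.63) and the glucocorticoid receptor Nr3c1 (14.8 ± 1.34) followed with overlapping ranges. Nr3c2, the mineralocorticoid receptor, stood at 4.09 ± 0.29. Lepr, the leptin receptor, named after its values were seen, held 2.33 to 4.11 CPM in the 10 mice, or 0.46 ± 0.08 CPM per kilobase. Insr, the insulin receptor, named likewise, held 45.7 to 58.9 CPM. The lowest were Mtnr1a, a melatonin receptor, at 0.27 CPM, and Gfral at 0.01 CPM. Esr1 (net CV 22.5%), Prlr (16.4%) and Gpr50 (14.7%) varied most.

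Genes that mark neurotransmitters showed both glutamate and GABA neurons. Slc17a6, the glutamate transporter of subcortical neurons, ranged from 62.1 to 75.3 CPM per kilobase (median 68.9). Gad2 (46.9 to 64.0), Slc32a1 (42.7 to 49.99) and Gad1 (34.9 to 40.3), which make and load GABA, followed, with Slc32a1 uncertain by overlap of 24.9%. Slc17a7, the transporter of cortical and thalamic glutamate neurons, stood at 22.5 ± 2.97, and Th, the enzyme that starts catecholamine synthesis, at 20.6 ± 6.08. The lowest were Slc6a4, the serotonin transporter, and Dbh, the enzyme of noradrenaline synthesis, at means of 0.05 and 0.04 CPM. Those 2 genes are made in brainstem cell bodies. Slc6a3, the dopamine transporter (net CV 46.6%), and Slc5a7, the choline transporter (46.2%), varied most in this list.

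The labelled tissue was checked against its markers. All 21 transcription factors of hypothalamic neurons were at 1 CPM or more in every mouse, with a summed level of 221 CPM in replicate 3 to 279 CPM in replicate 9. Otp (9.78 ± 1.32 CPM per kilobase), Six3 (6.399 ± 1.13) and Nkx2-1 (5.01 ± 0.63) were the highest. Markers of neighbouring regions were present too. The 5 thalamic markers summed to 737 to 910 CPM, and Prkcd, a kinase of thalamic relay neurons, alone held 338 to 434 CPM. The 9 anterior pituitary markers summed to 2.19 to 7.15 CPM, with Gh and Prl at 0 counts in every mouse. Cortical and hippocampal markers summed to 114 to 142 CPM in 9 mice and to 188 CPM in replicate 2. Striatal markers summed to 87.2 to 119 CPM. The Y-linked genes Ddx3y (71.6 to 84.9 CPM) and Eif2s3y (32.0 to 37.2 CPM) were present in every mouse, as the male label states.

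Neuronal, glial and vascular markers were present in every mouse. Oligodendrocyte markers summed to 8034 CPM in replicate 9 to 10739 CPM in replicate 4, with Mbp and Mobp (195 ± 17.4 CPM per kilobase) among the highest per kilobase. Astrocyte markers summed to 5144 to 5406 CPM, with Aldoc (333 ± 25.4) and Agt (126 ± 8.06) among the highest per kilobase. Neuronal markers summed to 4587 to 4880 CPM, led per kilobase by Tubb3, Snap25 and Eno2. Microglial markers summed to 294 to 335 CPM, led per kilobase by the complement genes C1qb and C1qa, and endothelial markers to 250.7 to 285.8 CPM, led per kilobase by Cldn5, the claudin of the blood-brain barrier. Markers of precursor cells of oligodendrocytes summed to 155 to 169 CPM, and those of tanycytes, which line the floor of the ventricle, to 89.0 to 117 CPM. Blood was present: the 5 red cell markers, whose globin genes share sequence, summed to 329 CPM in replicate 7 to 641 CPM in replicate 10.

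Choroid plexus, the tissue that secretes cerebrospinal fluid, set replicate 2 apart. Its 10 markers summed to 1002 CPM in that mouse and to 29.9 to 129 CPM in the other 9, with a median over all mice of 43.8. Ttr, which encodes the thyroxine carrier transthyretin, held 894 CPM in replicate 2, 88.4 CPM in replicate 8, 45.7 CPM in replicate 6 and 2.41 to 32.1 CPM in the others. Fibroblast and meningeal markers summed to 102 CPM in replicate 2 and 91.9 CPM in replicate 6, against 40.7 to 52.8 CPM in the other 8. Ependymal markers were high in replicate 2 (70.7 CPM) and replicate 5 (70.5 CPM), against 45.6 to 61.3 CPM elsewhere. Of the 10 choroid markers, 5 were at 1 CPM or more in every mouse, and none was at 0 in all of them.

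**Figure D3:**
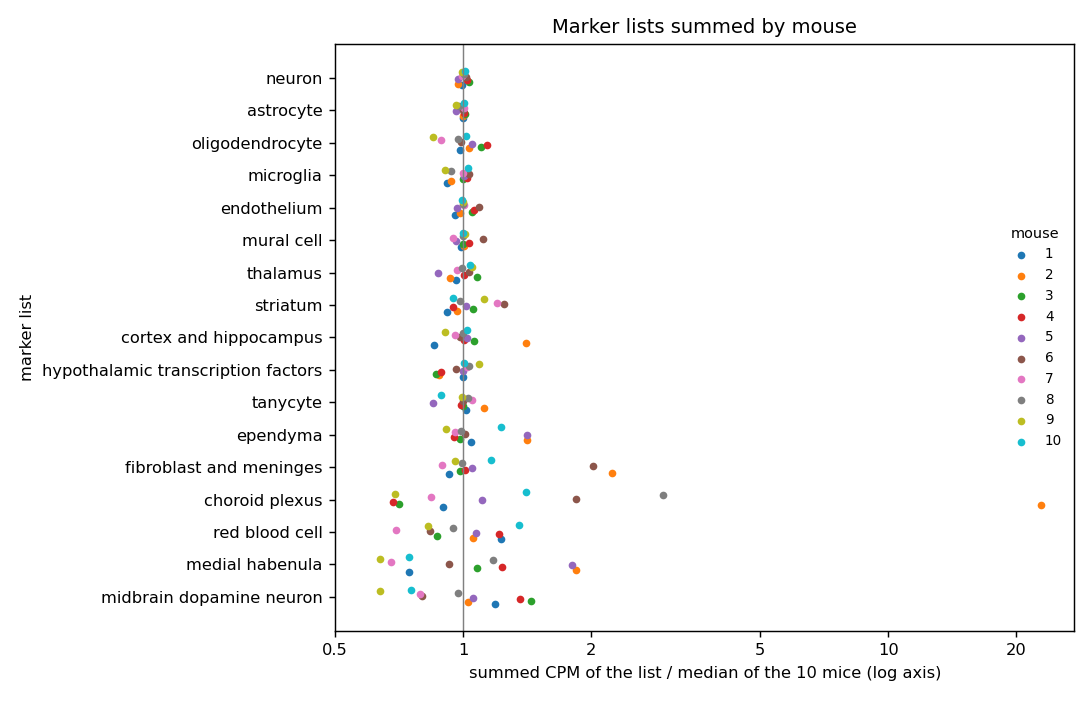
Summed CPM of each marker list in each mouse, divided by the median of the 10 mice (log axis), with 1 colour per mouse. Neuron and astrocyte sums lie close to 1, while the choroid plexus sum of replicate 2 lies at 22.9 times the median, and the lists for medial habenula and midbrain dopamine neurons, added after the variable genes were seen, spread from 0.64 to 1.85.

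Genes that respond to time and state gave the baseline for this night-time point. All 20 clock genes were at 1 CPM or more in every mouse, with a median net CV of 6.405%. Tef (39.8 ± 1.23 CPM per kilobase), Hlf (30.3 ± 2.16) and Nr1d2 (26.8 ± 1.50) were the highest. Per1 (11.03 ± 0.63) stood above Per2 (4.86 ± 0.33) with no overlap. Bhlhe41 (0%, uncertain by overlap), Tef (2.82%) and Cry1 (3.43%) varied least, and Npas2 (11.96%) varied most. Per1, Per2 and the 3 highest clock genes were named after their values were seen.

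Genes of neuronal activity varied more. The 19 immediate early genes had a median net CV of 17.5% over the 14 at 5 CPM or more. Fos, the best-known marker of recent firing, ranged from 7.47 CPM in replicate 1 to 22.6 CPM in replicate 3 (net CV 29.96%), and Junb (22.3%) and Nr4a2 (21.98%) followed, whereas Ier5 (4.87%) and Sik1 (6.23%) were steady. Glucocorticoid-induced genes had a median of 13.1%. Zbtb16 (27.9%), Plin4 (27.4%) and Sgk1 (25.8%) varied most, with Sgk1 at 41.2 CPM in replicate 6 to 90.4 CPM in replicate 3. Of the 17 genes of that list, the summed level was highest in replicate 2 (822 CPM) and lowest in replicate 9 (609 CPM). Reference genes had a median of 5.05%, close to the 5.60% over all genes at 5 CPM or more, so as a list they were not markedly steadier. Eef1a1 (net CV 1.76%, uncertain) and Actb (2.46%) were the steadiest of the reference genes, and Rpl13a (11.01%, uncertain) varied most.

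Over all genes at 5 CPM or more, variation between mice was small. The median net CV was 5.60%, the 90th percentile 11.3% and the 99th percentile 21.98%. A total of 79 genes (0.653%) reached 25%, and for 576 genes the spread was no larger than counting error. Among the 4596 genes at 50 CPM or more, the median CV as measured was 5.23%, and 2068 genes lay below 5%. Genes were ranked on these values themselves, so the ranks are a description with no test.

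**Figure D4:**
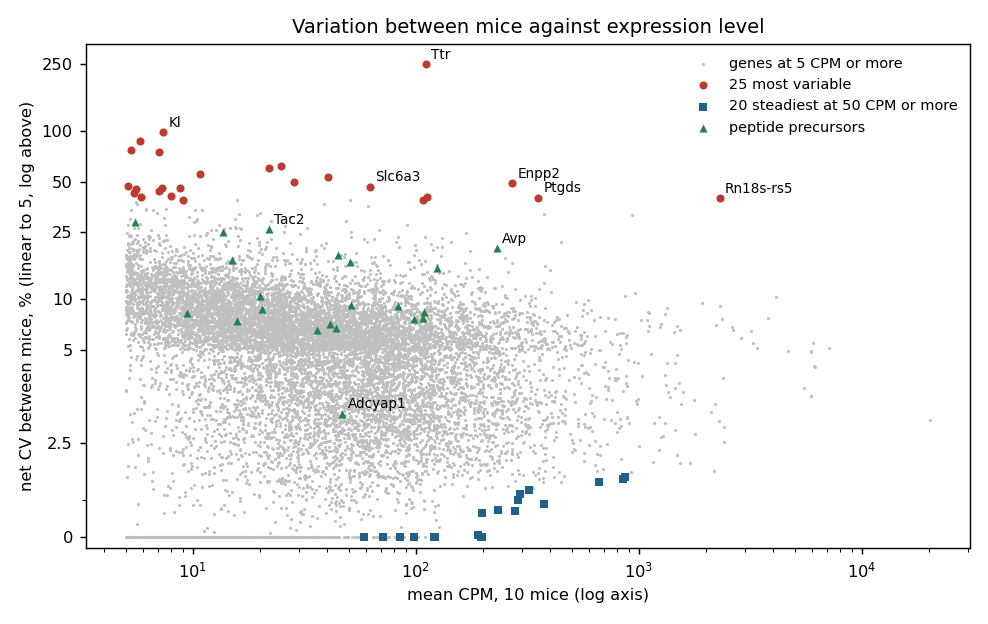
Net CV between the 10 mice (linear to 5%, log above) against mean CPM (log axis) for genes at 5 CPM or more, with the 25 most variable genes, the 20 steadiest genes and the peptide precursors marked. Ttr lies alone at 250%, and the median gene lies at 5.60%.

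The most variable genes formed groups that were high in the same mice. Of the 25 most variable, 13 were highest in replicate 2, as were 35 of the top 100. The first group was highest in replicate 2 and held Ttr (net CV 250%) and Kl (98.9%) of the choroid plexus list, Igf2 (62.2%, uncertain) of the meningeal list, and Enpp2 (49.1%), Slc6a20a (43.0%, uncertain) and Ptgds (40.3%). Sspo (75.6%), a gene of the subcommissural organ, held 19.8 CPM in replicate 2 and 13.2 CPM in replicate 1, against 3.35 to 7.17 CPM elsewhere. Enpp2, which encodes autotaxin, held 645 CPM in replicate 2 and 208 to 274 CPM in the others. Without replicate 2 its net CV was 9.39%, that of Kl 27.7% and that of Ttr 119%. Kl, which encodes the protein klotho, held 27.8 CPM there and 2.59 to 8.20 CPM elsewhere.

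The second group held genes known from the medial habenula, a small nucleus above the thalamus that uses acetylcholine. Pou4f1 (77.8%), a transcription factor of habenular neurons, held 12.5 CPM in replicate 5 and 11.8 CPM in replicate 2, against 0.47 CPM in replicate 9. Robo3 (87.8%), Scube1 (60.6%), Gpr151 (55.3%), Nwd2 (49.7%, uncertain), Ano1 (47.0%), Slc5a7 (46.2%), Chrna3 (46.1%) and Chrnb3 (45.2%) were likewise highest in replicate 2 or 5. A list of 10 habenular genes, made after these values were seen and holding 6 of the most variable genes, summed to 220 CPM in replicate 2 and 215 CPM in replicate 5, against 75.9 to 147 CPM in the others. All 10 were highest in replicate 2 or 5 and 8 were lowest in replicate 9.

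A further pattern concerned genes of dopamine neurons. Slc6a3 ranged from 25.8 CPM in replicate 9 to 115 CPM in replicate 3 (median 63.3, net CV 46.6%). Th ranged from 27.2 CPM in replicate 9 to 72.4 CPM in replicate 3 (29.3%). A list of 10 genes named for dopamine neurons of the midbrain was also made afterwards. It summed to 376 CPM in replicate 3 and 354 CPM in replicate 4, against 166 CPM in replicate 9. The sum split by library number range without overlap, at 267 to 376 CPM in replicates 1 to 5 and 166 to 253 CPM in replicates 6 to 10. With the means of the ranges removed, the net CV of Slc6a3 was 28.7%. Of the 10, 9 were highest in replicate 3 or 4, and 9 were lowest in replicate 9. The part of dissection in these sums was not tested, nor was whether the RNA came from midbrain or from hypothalamic dopamine neurons.

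The remaining variable genes are given singly. Lhx6 (40.4%), a transcription factor of GABA neurons, was highest in replicate 9 at 11.3 CPM and lowest in replicate 3 at 3.12 CPM. Erdr1 (40.9%) and Gm21887 (39.1%, uncertain) were highest in replicate 8 and lowest in replicate 4. Gm21857 (44.0%) was highest in replicate 10, and its net CV was 23.3% without that mouse. Ccl21c (39.2%) was highest in replicate 2 and lowest in replicate 9. Sharing of 50-base words is unknown for Erdr1, Gm21857 and Ccl21c, so the missing flag does not clear them. Xlr3b (41.0%, uncertain), Rn18s-rs5 (40.0%, uncertain) and Wdfy1 made up the rest. Xlr3b was at 1.86 CPM in replicate 6 and at 4.88 to 11.9 CPM in the others.

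**Figure D5:**
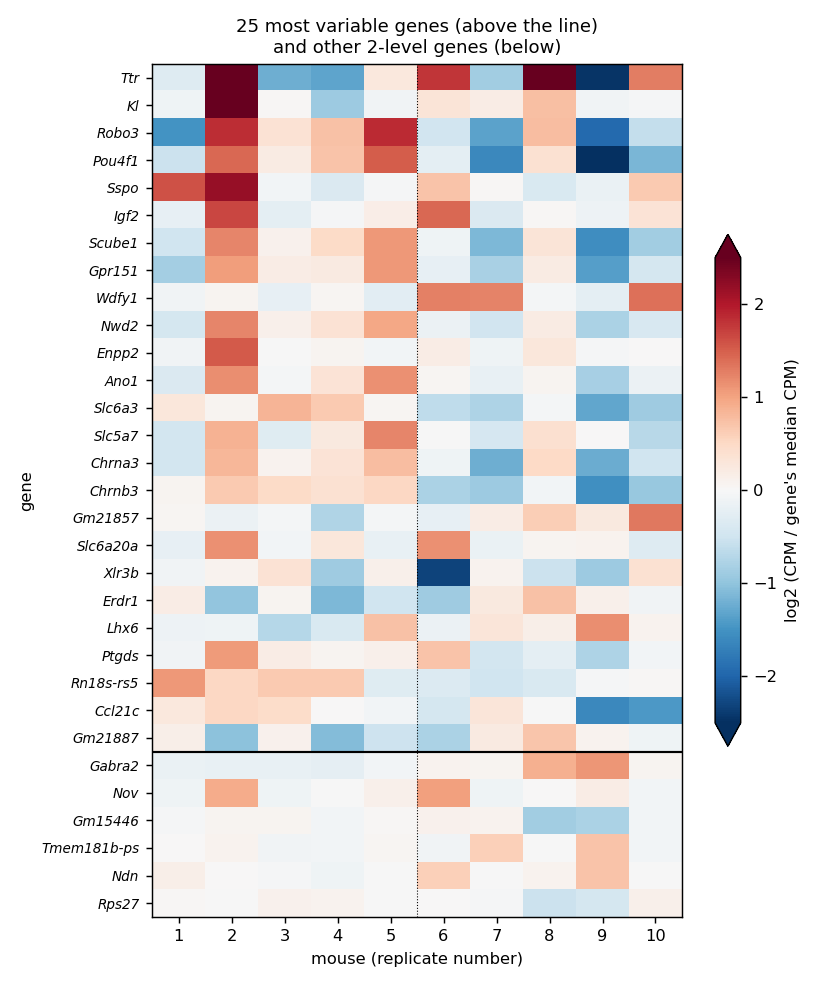
Log2 ratio of CPM to the gene's median over the 10 mice (columns), for the 25 most variable genes by net CV (above the line) and the other genes found at 2 levels (below), with a dotted line between the library number ranges. Replicates 2 and 5 stand high for the habenular genes, replicate 2 for choroid plexus genes, and Wdfy1 and Gabra2 split the mice into 2 levels.

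Some genes split the mice into 2 levels with nothing between. A search added after the data were seen asked for a gap of at least 0.4 on the log2 scale that was at least 4 times the SD within the levels, with 2 or more mice on each side, and found 9 of 12093 genes. Wdfy1 (chr1:79702262-79776143, minus strand) held 68.5 to 75.7 CPM in replicates 6, 7 and 10 and 24.3 to 30.7 CPM in the other 7. Gabra2 (chr5:70957597-71095849, minus strand), a GABA-A receptor subunit, held 81.2 CPM in replicate 8 and 93.6 CPM in replicate 9, against 37.6 to 46.3 CPM in the other 8. Its RNA is known to be low in C57BL/6J mice through an intronic deletion, and the genotype at this site was not examined. Ndn (602 to 652 CPM in replicates 6 and 9, 368 to 439 CPM elsewhere), Nov, Igf2 and Slc6a20a (the last 3 high in replicates 2 and 6) were further cases. Rps27 and Gm15446 were low in replicates 8 and 9, and Tmem181b-ps was high in replicates 7 and 9. Gm15446, Tmem181b-ps, Igf2 and Slc6a20a are uncertain.

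The steadiest genes at 50 CPM or more had a net CV of at most 1.59%. Glyr1, which encodes a chromatin protein, ranged from 194.7 to 198.0 CPM in the 10 mice, a CV of 0.52%, where counting error alone gives 1.63%. Gosr1, a Golgi transport gene, ranged from 57.9 to 59.8 CPM (CV 1.03%). Capn2 (1.46%, uncertain), Nf2 (1.47%), Ppp2r2c (1.47%), Eif4g1 (1.54%), Mgat3 (1.55%), Mfap1a (1.62%, uncertain), Clptm1 (1.66%) and Pip5k1c (1.66%) followed. The remaining members of the 20 were Kansl3, Mapk10, Tcf25, Prkar1a, Necap1, Trim37, Syt11, Ubp1 (uncertain), Smarcc2 and Zfp664, at 1.67% to 1.80%. Prkar1a (850 ± 14.7 CPM) and Syt11 (865 ± 15.3 CPM) were the most abundant of the 20. All 100 steadiest genes were protein-coding, against 97.1% of all genes at 50 CPM or more, and their median level was 214 CPM against 96.9. They were ranked by the CV as measured, which includes counting error. Counting error falls with level (median 1.57% in the 100 against 2.33% over all), so this ranking itself favours high levels. Of the 100 most variable genes 81 were protein-coding, against 94.5% of all genes at 5 CPM or more, and their median level was 10.9 CPM against 34.5. The 2 sets start from different minimum levels, so their levels are not compared. TATAAA lay before 6 of 59 of the most variable genes with a promoter (10.2%: Gm43305, Myoc, Snhg8, Fos, Vip and Sgk1) and before 1 of 91 of the steadiest (1.10%). It lay before 0 of 15 among the 25 most variable genes and before 2 of 13 reference genes (15.4%).

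Replicates 6 to 10 were then compared with replicates 1 to 5, to see how far the spread between mice followed the library number ranges. At a Benjamini-Hochberg adjusted p below 0.05, the quasi-likelihood test of edgeR called 469 of 16946 genes (2.77%), 192 higher and 277 lower in replicates 6 to 10, with a median absolute log2 change of 0.24. The test measures only the spread between these samples. Of the 38 precursors tested, 2 were called (Cartpt and Rln3), of 53 receptors 2 (Prokr2 and Calcr), of 17 hormone receptors 2 (Prlr and Nr3c1), and of 9 oligodendrocyte markers 4. Further lists with 2 calls were striatum (of 6 tested), astrocytes (of 10) and clock genes (of 20). These lists are named because they held calls, and 2 or more calls exceed 2.77% in any list this short. Exceeding that share is thus no result by itself, and the largest share was that of the oligodendrocyte list (4 of 9). The lists of neurons (Syt1, of 8 tested), immediate early genes (Nr4a2, of 18) and heat shock or cold-inducible genes (Cirbp, of 9) had 1 call each. The other lists fixed for the description had 0. Among them were hypothalamic transcription factors (of 21 tested), reference genes (of 17), glucocorticoid-induced genes (of 17) and transmitter genes (of 16). Cartpt fell from 51.8 ± 4.67 CPM to 38.2 ± 4.69 CPM (SD, n = 5 each; log2 change -0.44, SE 0.08, edgeR adjusted p 0.0117).

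In the same comparison Mog, a myelin protein gene, fell from 102 ± 7.25 CPM to 83.8 ± 7.28 CPM (log2 change -0.29, SE 0.06, edgeR adjusted p 0.0131). Mobp, Cldn11 and Mag, the last named after its values were seen, were also called lower, Cldn11 under 8 of 15 alternative settings. Nr3c1 rose from 102 ± 5.54 CPM to 118 ± 5.81 CPM (log2 change 0.21, SE 0.05, edgeR adjusted p 0.0191). Of the 25 most variable genes 1 was called, Chrnb3 (log2 change -1.19, SE 0.19, edgeR adjusted p 0.0110). The count of calls depended on single libraries: it was 78 without replicate 4, 90 without replicate 7, 123 without replicate 3, 131 without replicate 9, 191 without replicate 5 and 1136 without replicate 10.

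Transcript length moved with the mice as well. Protein-coding genes whose longest transcript is under 1000 bases took 1.67% of the counts in replicate 9 and 2.23% in replicate 3, with a median of 2.13%, while those of 5000 bases or more took 27.5% and 24.9% in the same mice. Of 76 ribosomal protein genes at 50 CPM or more, 63 were lowest in replicate 9, 8 in replicate 8 and 5 in replicate 7. The first principal component of the libraries, with 33.1% of the variance, separated the library number ranges, with scores of -8.58 to -3.38 in replicates 1 to 5 and -0.48 to 17.5 in replicates 6 to 10. Replicate 9 was farthest at 17.5, and the next was replicate 7 at 8.58. The second, with 13.2%, set replicate 2 apart at 13.9, against -4.36 to 2.68. The third, with 10.1%, had Tac2 and Nts at the same end as the habenular genes Robo3, Pou4f1, Slc5a7, Scube1, Chrna3, Gpr151 and Nwd2. Ttr, Gabra2 and Lhx6 were at that end too, and replicates 8 (8.90) and 5 (7.30) scored highest. The part of transcript length in the values above was not tested.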

How the data were processed

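RNA-seq of hypothalamus from 10 fed control mice was used, and the other samples of the series were not used here. The authors deposited whole-number read counts per gene, from STAR 2.7.10b alignments to mm10 counted with featureCounts 2.0.1 on the GENCODE M12 annotation, per the submitters' processing notes and the file headers. The recorded counting options count fragments of read pairs by gene name, count every alignment of a fragment that maps to several places, and leave fragments that overlap 2 genes unassigned. Counts were scaled with TMM (edgeR 4.0.16, R 4.3.3) to CPM, divided by the deposited gene length for values per kilobase, and summarised over mice. The CV net of counting error was taken from a mean level of 5 CPM upwards. Genes were called uncertain with at least 10% of exon bases inside another gene or at least 10% of their 50-base words found in other genes. Overlaps were taken from the exon coordinates deposited with the counts (GENCODE M12). 47313 names matched the GENCODE M21 annotation, which was used for gene classes, longest transcripts and 50-base words. Sharing of words was computed for named genes and the highest genes, and is unknown for some.

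Replicates 6 to 10 were compared with replicates 1 to 5 by edgeR's quasi-likelihood test after filterByExpr (minimum count 10), with Benjamini-Hochberg adjustment and calls below 0.05. DESeq2 1.42.0 was an alternative, and scripts were tested on simulated data. No 2 libraries held identical values. Genes were named by a rule: the 15 highest by CPM and per kilobase, the 15 highest peptide precursors and any list member at 1 CPM or more, the 6 highest and 2 lowest of the other neural lists, the 3 highest of each cell type list with markers at 0, the 25 most variable and 20 steadiest genes, and up to 3 most and least variable members of each list. Genes outside it are said to have been named after their values were seen. The part of the study, the members and the lists were chosen with earlier results of these data known. The deposited length is the union of exons, so values per kilobase of genes with long alternative exons are lowered. Some genes that the rule names are not reported here.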

Additional observations from a re-analysis of the deposited data

Results flagged for a closer look

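A mouse was marked when its gap to the nearest other mouse, divided by the range of the 10 mice, exceeded the critical value of Dixon's test for 10 values. Of 282 items examined, 28 were marked. Chance marks about 1 in 20 (5%) of independent items that were not picked for their spread. Many of these items were named for their spread in the same values, and sums repeat their members. The 28 marked items are therefore not to be set against that share. Replicate 2 held 9 of them. They were the choroid plexus sum (1002 CPM, next 129), Ttr (894 CPM, next 88.4), Enpp2 (645, next 274), Kl (27.8, next 8.20) and the choroid plexus gene Clic6 (29.9, next 17.4), and the sum of cortical and hippocampal markers (188 CPM, next 142) with Neurod2 (12.7, next 2.23) and Slc17a7 (158.7, next 132). The ninth was Tcf25, low at 634 CPM (next 653).

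Replicate 9 held 5 of the items. mt-Nd4 (6707 CPM), Gm28439 (3648 CPM, uncertain) and Oprm1 (9.34 CPM, next 6.65) were high there. Aldh1l1 (59.8 CPM, next 65.4, uncertain) and C1qa (24.5 CPM, next 32.8) were low. Replicate 5 was high for Gal (21.5 CPM, next 16.5) and Tacr1 (15.3, next 13.6) and low for Tcf7l2 (155.0, next 171.7) and Scn7a (7.43, next 11.5). Replicate 8 had the deepest library (21898438 counts) and was low for mt-Nd4l (873 CPM) and Gm10222 (863 CPM).

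Replicate 6 was high for the mural cell sum (170.5 CPM, next 158.1) and was the only mouse with a count for Gnrhr (0.0531 CPM). Single items were Nr5a1 in replicate 1 (8.58 CPM), Dbh in replicate 3 (0.11 CPM), Tshb in replicate 4 (3.47 CPM), mt-Rnr2 in replicate 7 (low at 2971 CPM) and Gm21857 in replicate 10 (14.9 CPM, next 9.20). The levels of Gnrhr and Dbh rest on 1 or a few counts.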

How the results depend on the processing

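The number of genes called between replicates 1 to 5 and 6 to 10 was 469, and it moved to 1090 with no filter, to 898 with the DESeq2 test, and to 78 to 1136 when each replicate was left out in turn (78 without replicate 4, 90 without replicate 7, 123 without replicate 3, 131 without replicate 9, 191 without replicate 5, 1136 without replicate 10). The cause was not tested. Genes with a net CV of 25% or more numbered 79, against 496 with a minimum mean of 1 CPM and 27 with 20 CPM, which admit more or fewer genes, and 68 to 91 with a replicate left out. The median net CV of 5.60% was 4.13% in replicates 1 to 5 alone, and 5.07% to 5.71% with a replicate left out. Taken as the SD of CPM on the natural log scale, from which counting error is not removed, the median was 7.12%. No difference reversed. Mean CPM of named genes moved by more than the SD in 87 cases and by less in 1152. Cartpt and Mog were called under each of 15 alternatives, and Nr3c1 under 13. No paired analysis was possible because only 1 group was described. Alternatives added after seeing the data were the leave-one-out net CV, the search for 2 levels, the 2 added lists and the length classes. At the shallowest depth, 3 counts equal 0.167 CPM, so levels near it are not resolved.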

Other observations

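Heat shock and cold-inducible genes were abundant, and all 9 were at 1 CPM or more in every mouse. Hspa8, a constitutive chaperone, stood at 510 CPM per kilobase and Hsp90aa1 at 350, with net CVs of 3.55% and 3.74%, while the inducible Hspa1b varied by 29.3%. Of 12 interferon-response genes, 10 were at 1 CPM or more in every mouse. Their sum ranged from 65.7 CPM in replicate 1 to 80.4 CPM in replicate 3, led by Ifi27 at 14.3 CPM per kilobase. Border macrophage markers were low, with a sum of 3.26 to 7.15 CPM, and 1 of the 5 was at 1 CPM or more in every mouse.

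The 100 most variable genes of replicates 1 to 5 and those of replicates 6 to 10, ranked separately, shared 31 genes. Of the 25 most variable genes over all mice, 21 lay in the first of these lists and 21 in the second. The 25 were ranked on the same mice, so this overlap is partly built in and is no replication.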
